A study of Mus musculus with 8 samples.

Results

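Wnt proteins are secreted ligands that bind Frizzled receptors and their LRP co-receptors, and in the canonical branch of the pathway they stabilize beta-catenin. Secreted modulators tune this signal outside the cell. The secreted Frizzled-related proteins (sFRPs) carry a Frizzled-like domain that binds Wnt ligands, WIF1 binds Wnt ligands through a different domain, and Dickkopf proteins such as DKK1 and DKK2 act on the LRP co-receptors. In skeletal muscle, Wnt signals take part in regeneration and in the behavior of satellite cells and fibro-adipogenic progenitors.

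Here, the mRNAs of 8 secreted Wnt modulators were examined, out of 41709 genes listed. These were the 5 sFRP genes *Sfrp1*, *Sfrp2*, *Sfrp4*, *Sfrp5* and *Frzb* (which encodes sFRP3), together with *Wif1*, *Dkk2* and *Dkk3*. The genes were chosen by name, with earlier results of these data known. *Sfrp4* was picked because it was higher with *Uba1* siRNAs in these same muscles. Its change is therefore described without a test.

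RNA-seq was done on the tibialis anterior (TA) muscle of male C57BL/6J mice aged 3 months. Of 8 muscles, 4 were electroporated with siRNAs against *Uba1*, which encodes the main ubiquitin-activating enzyme, and 4 with non-targeting (NT) control siRNAs. The muscles of both groups had received hyaluronidase before electroporation and were collected 7 days after it. Each mouse carried NT siRNAs in a leg and *Uba1* siRNAs in the opposite leg, and equal replicate numbers mark the legs of a mouse. All NT muscles are labelled R and all *Uba1* muscles L, so that leg and siRNA cannot be told apart. The treatment tags of *Uba1* replicates 2 to 4 name UBA2, UBA3 and UBA4, whereas their titles and descriptions name UBA1, which was used here. The siRNAs were delivered to the whole muscle and are not restricted to a cell type.

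mRNA levels are given as TPM, a share of all transcripts that is scaled for transcript length. TPM sum to 1000000 in each muscle, so that the number of reads is unknown. The targeted mRNA, *Uba1*, averaged 60.6 ± 2.11 TPM in NT muscles and 15.9 ± 6.83 TPM in *Uba1* muscles (SD, n = 4 each). The groups were far apart (log2FC -1.98 ± 0.29, standard error), with an adjusted p of 0.0527 from limma, or 0.0278 with the mouse as a block. The lowest *Uba1* mRNA level was 6.77 TPM in *Uba1* replicate 2, and the highest among the knockdown muscles was 23.1 TPM in *Uba1* replicate 4. The summed TPM of 9 myofiber markers was between 137183 and 150701 in NT muscles and between 107353 and 153373 in *Uba1* muscles. *Uba1* replicates 2 and 4, at 107353 and 126468 TPM, lay below the NT range, and the other *Uba1* muscles did not. No muscle was a copy of another.

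The 8 genes lie on 7 chromosomes of GRCm39. *Sfrp4* lies on chromosome 13 from 19807274 to 19817164 (plus strand) and its canonical transcript has 6 exons. *Frzb* lies on chromosome 2 from 80242313 to 80278304 (minus strand), *Sfrp1* on chromosome 8 from 23901263 to 23939648 (plus strand) and *Sfrp5* on chromosome 19 from 42186410 to 42190691 (minus strand). *Sfrp2* and *Dkk2* share chromosome 3, from 83673481 to 83681623 and from 131790336 to 131886065 (both plus strand). *Dkk3* lies on chromosome 7 from 111712904 to 111758760 (minus strand) and *Wif1* on chromosome 10 from 120869865 to 120936555 (plus strand). *Sfrp2* overlaps the antisense RNA *Gm26771* in its exons and *Frzb* overlaps *Gm74782*. The library kit does not mark the strand, so reads of such a pair cannot be told apart. *Gm26771* was listed at 0 TPM in all 8 muscles, and *Gm74782* was not used here.

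The 250 bases before the transcription start of *Sfrp2* are shown because this mRNA had the largest log2FC after *Sfrp4* (GRCm39, chr3:83673231-83673480, plus strand, 5′ to 3′).
Sfrp2: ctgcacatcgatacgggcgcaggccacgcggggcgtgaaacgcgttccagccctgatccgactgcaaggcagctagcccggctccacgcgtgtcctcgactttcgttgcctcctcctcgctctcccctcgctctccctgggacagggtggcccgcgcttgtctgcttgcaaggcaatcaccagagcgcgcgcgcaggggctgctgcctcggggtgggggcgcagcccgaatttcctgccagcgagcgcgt

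The same window of *Sfrp2* and of the other modulators except *Sfrp4*, 7 genes in all, was searched on both strands for short motifs, and their frequency was counted in 21770 windows of the same length before protein-coding genes. The letters TTCAAAG can be bound by TCF/LEF factors, the nuclear partners of beta-catenin. They occurred in 4.84% of all windows and in none of these 7. The AP-1 motif TGANTCA, where N is any base, occurred in 6.17% of all windows and likewise in none of these 7. The GC box, with the letters GGGCGG, occurred in 36.3% of all windows and in those of *Dkk2*, *Frzb*, *Sfrp5* and *Wif1*. A TATA box, searched as TATAAA, occurred in 11.9% of all windows and in those of *Dkk2* and *Wif1*. The window of *Sfrp2* held no match to any of these letters and is therefore printed without capitals.

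*Frzb*, *Dkk3* and *Sfrp5* were the most abundant of the 8 mRNAs in control muscles. With NT siRNAs, *Frzb* was at 9.93 ± 2.10 TPM, *Dkk3* at 7.23 ± 2.38 TPM, *Sfrp5* at 3.90 ± 0.858 TPM and *Sfrp4* at 2.66 ± 1.21 TPM (SD, n = 4 muscles each). The order of these 4 mRNAs was the same in each of the 4 NT muscles, although only the ranges of *Dkk3* and *Sfrp5* were apart among neighbors in this order. *Sfrp2* was at 1.81 ± 1.09 TPM, *Dkk2* at 1.06 ± 0.221 TPM, *Sfrp1* at 0.859 ± 0.171 TPM and *Wif1* at 0.846 ± 0.566 TPM (SD, n = 4 muscles each). The order of these 4 differed between NT muscles and their ranges overlapped. The mean level of *Frzb* was above that of 59.9% of the 11530 genes tested below, and that of *Sfrp4* was above 22.7% of them.

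**Figure D1:**
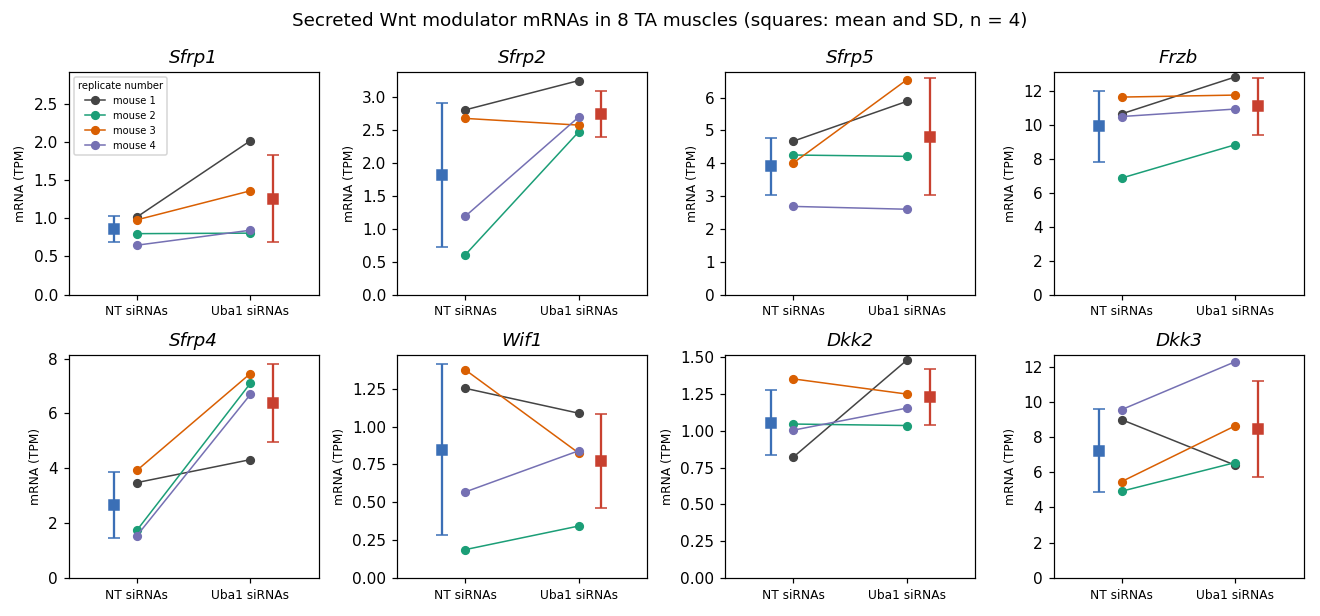
Levels of the 8 mRNAs (y axes, TPM, each starting at 0) with NT and *Uba1* siRNAs. Circles are muscles, lines join the legs of 1 mouse, and squares with bars are the mean and SD of 4 muscles. The *Sfrp4* values with *Uba1* siRNAs, from 4.31 to 7.46 TPM, all lie above those with NT siRNAs, from 1.53 to 3.92 TPM, whereas the groups overlap for the other 7 mRNAs.

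*Sfrp4* had the largest difference of the 8 mRNAs, as its choice implies. In NT replicates 1 to 4 it was at 3.47, 1.73, 3.92 and 1.53 TPM. In *Uba1* replicates 1 to 4 it was at 4.31, 7.10, 7.46 and 6.69 TPM. The groups did not overlap, and *Sfrp4* was higher in 4 of 4 pairs of legs, with the smallest difference in mouse 1. The mean went from 2.66 to 6.39 TPM, a ratio of 2.40, and the log2FC on the scale of log2(TPM + 1) was 1.05 (standard error 0.24, n = 4 muscles per group). By mouse, the log2 difference was 0.25 in mouse 1, 1.57 in mouse 2, 0.78 in mouse 3 and 1.60 in mouse 4. Leaving out any single muscle kept the log2FC between 0.89 and 1.21. For comparison, the groups were apart with higher values in *Uba1* muscles for 10.6% of the 11530 genes tested and with lower values for 1.01%, and 32.2% were higher in 4 of 4 pairs.

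The next gene to the left of *Sfrp4*, *Epdr1*, ends 3139 bp from it and had on average 88.2 TPM in NT muscles and 84.5 TPM in *Uba1* muscles, a log2FC of -0.06. *Nme8*, the next gene to the right at 12084 bp, was listed at 0 TPM in all muscles.

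The groups were compared with limma on the log2(TPM + 1) scale, for the 11530 genes that reached 1 TPM in 4 or more muscles. Of the 8 modulators, 6 reached it, and *Sfrp1* and *Wif1* did not. The adjusted p (Benjamini-Hochberg, over all genes tested) was under 0.05 for 3 genes (0.026%), or for 57 when the mouse was a block (0.494%). None of the 5 tested modulators other than *Sfrp4* passed in either fit. At an unadjusted P under 0.05, 0 of these 5 passed without the block, against 18% of all genes tested. With the block 1 of the 5, *Sfrp2*, passed, against 25.2% of all genes tested.

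The sFRPs other than *Sfrp4* are considered first. *Sfrp2*, which is expressed by fibroblast-like cells of many tissues, was at 2.80, 0.600, 2.67 and 1.18 TPM in NT replicates 1 to 4. With *Uba1* siRNAs it was at 3.24, 2.47, 2.57 and 2.69 TPM. The *Uba1* muscles were close to each other, whereas NT replicates 2 and 4 were low, and the groups overlapped. Its log2FC was 0.50 ± 0.26 (standard error; limma, adjusted p = 0.327), with a 95% interval from -0.08 to 1.08, and it was higher in 3 of 4 pairs. With the mouse as a block, the adjusted p was 0.164 (limma).

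*Sfrp5*, an sFRP known for its expression in adipose tissue, was at 4.67, 4.25, 4.01 and 2.68 TPM in NT replicates 1 to 4. In *Uba1* replicates 1 to 4 it was at 5.89, 4.21, 6.55 and 2.60 TPM. Its level was higher in mice 1 and 3 and nearly equal in mice 2 and 4. The log2FC was 0.21 ± 0.23 (standard error; limma, adjusted p = 0.630), with a 95% interval from -0.31 to 0.72.

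*Frzb* was the most abundant of the 8 mRNAs on average in both groups. Its NT values were 10.7, 6.88, 11.7 and 10.5 TPM, and its *Uba1* values 12.9, 8.85, 11.8 and 11.0 TPM, for replicates 1 to 4. Mouse 2 had the lowest value in both legs. *Frzb* was higher in 4 of 4 pairs, but by little in mice 3 and 4, and the groups overlapped. Its log2FC was 0.16 ± 0.16 (standard error; limma, adjusted p = 0.587), with a 95% interval from -0.20 to 0.52.

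*Sfrp1* was near 1 TPM in most muscles, with NT values of 1.02, 0.798, 0.978 and 0.646 TPM for replicates 1 to 4. The *Uba1* values were 2.02, 0.805, 1.36 and 0.843 TPM. It was higher in 4 of 4 pairs, with a log2 difference of 0.58 in mouse 1 and 0.0055 in mouse 2. The groups overlapped, with a two-sided exact permutation p of 0.229, where 0.0286 is the smallest p that 4 muscles against 4 allow.

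Because TPM are parts of a whole, the make-up of the sFRP mRNAs was also examined within each muscle, where it does not depend on the scaling between muscles. *Sfrp4* made up 15.4, 12.1, 16.9 and 9.26% of the summed TPM of the 5 sFRP mRNAs in NT replicates 1 to 4. In *Uba1* replicates 1 to 4 it made up 15.2, 30.3, 25.1 and 28.1%. *Uba1* replicate 1 thus lay within the range of the NT muscles, and the other 3 above it. The share of *Frzb* was 52.3 ± 7.58% with NT siRNAs and 42.2 ± 4.14% with *Uba1* siRNAs, and that of *Sfrp5* 21.0 ± 6.18% and 17.9 ± 4.97% (SD, n = 4 muscles each). The share of *Sfrp2* was 8.80 ± 3.82% and 10.5 ± 1.29%, and that of *Sfrp1* 4.55 ± 0.737% and 4.67 ± 1.71% (SD, n = 4 muscles each). The summed level of the 5 mRNAs was 19.2 ± 4.45 TPM in NT muscles and 26.3 ± 3.18 TPM in *Uba1* muscles (SD, n = 4 each). These shares include *Sfrp4*, so they are a description and were not tested.

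**Figure D2:**
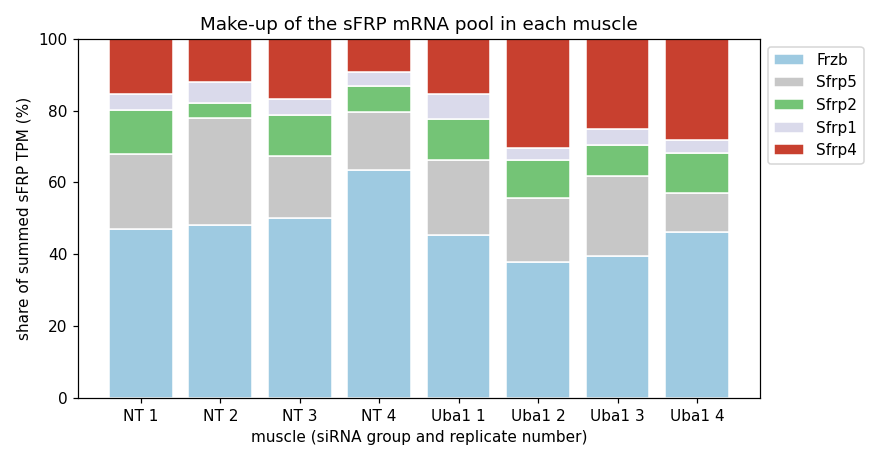
Share of each sFRP mRNA in the summed TPM of the 5 (y axis, %), in each of the 8 muscles (x axis, siRNA group and replicate number). *Sfrp4* takes 9.26 to 16.9% with NT siRNAs, 15.2% in *Uba1* replicate 1 and 25.1 to 30.3% in *Uba1* replicates 2 to 4.

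*Wif1* encodes Wnt inhibitory factor 1. It was at 1.25, 0.186, 1.38 and 0.568 TPM in NT replicates 1 to 4, and at 1.09, 0.343, 0.826 and 0.841 TPM in *Uba1* replicates 1 to 4. It was lower in mice 1 and 3 and higher in mice 2 and 4. The log2FC was -0.020 (standard error 0.27; exact permutation test, p = 0.971, two-sided), and its sign changed with the pseudocount and with the muscles included.

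The Dickkopf mRNAs also overlapped between the groups. *Dkk2* was at 0.821, 1.05, 1.35 and 1.00 TPM in NT replicates 1 to 4, and at 1.48, 1.04, 1.25 and 1.15 TPM in *Uba1* replicates 1 to 4. It was higher in mice 1 and 4 and lower in mice 2 and 3, with a log2FC of 0.12 ± 0.10 (standard error; limma, adjusted p = 0.534) and a 95% interval from -0.11 to 0.35. *Dkk3* encodes a divergent Dickkopf protein whose part in Wnt signaling is less clear. Its level was 8.98, 4.92, 5.47 and 9.56 TPM in NT replicates 1 to 4, and 6.40, 6.55, 8.64 and 12.3 TPM in *Uba1* replicates 1 to 4. It was lower in mouse 1 and higher in mice 2, 3 and 4. The log2FC was 0.21 ± 0.24 (standard error; limma, adjusted p = 0.642), with a 95% interval from -0.34 to 0.75.

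In the order of mean levels with *Uba1* siRNAs, *Sfrp4* came directly after *Frzb* and *Dkk3* and before *Sfrp5*, which it had followed with NT siRNAs. Its range overlapped those of *Dkk3* and *Sfrp5*, its neighbors in that order. Leaving aside *Sfrp4*, which was picked for its rise, the 5 tested modulators all had a log2FC above 0, as did 81.8% of all genes tested, so a positive sign sets them apart little. The median of these 5 was 0.21, against 0.11 for all genes tested. Median-ratio scaling of the TPM moved the median of all genes to 0.0016 and that of the 5 to 0.099. The 5 were still above 0, as were 50.7% of all genes tested on that scale. By that scaling the log2FC of *Sfrp4* was 0.96, with *Sfrp2* at 0.42, *Sfrp5* at 0.10, *Dkk3* at 0.099, *Dkk2* at 0.054 and *Frzb* at 0.048.

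The other genes of the Wnt pathway were examined in 5 lists by role, with 85 different genes, of which 45 were tested. None passed the adjusted p, with or without the mouse as a block, and the smallest adjusted p was 0.150 without it and 0.0803 with it (limma). At an unadjusted P under 0.05, 12 of the 45 were higher and 0 lower, while 16% of all genes tested were higher and 1.98% lower. After median-ratio scaling, 4 pathway genes were higher and 1 lower at this P, while 4.43% of all genes tested were higher and 6.18% lower. A log2FC above 0 was found for 43 of the 45 genes, where the share of all genes tested was 81.8%, and for 33 with that scaling, where it was 50.7%. The groups did not overlap for 8 of the 45 genes, all higher, while 10.6% of all genes tested were apart and higher and 1.01% apart and lower. *Wnt5a*, *Fzd1* and *Ccn4* are among these 8 and are named below for their large log2FC.

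Of 14 other secreted regulators, only *Igfbp4*, which encodes an IGF-binding protein also reported to inhibit canonical Wnt signaling, was high enough to be tested. It was at 18.7 ± 3.55 and 22.8 ± 7.57 TPM (SD, n = 4 each), with a log2FC of 0.23 ± 0.22 (standard error; limma, adjusted p = 0.576). *Sost*, *Dkk4* and *Dkkl1* were listed at 0 TPM in all 8 muscles, and *Dkk1* was at 0.0813 TPM or less. The R-spondin *Rspo3*, an activator of the pathway, averaged 0.383 ± 0.0993 TPM in NT muscles and 0.512 ± 0.0536 TPM in *Uba1* muscles (SD, n = 4 each), with a two-sided exact permutation p of 0.114.

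Among the Wnt ligands and the genes for their secretion, 7 of 21 were tested and 2 had an unadjusted P under 0.05, a P that 18% of all genes tested had. *Wnt5b* and *Wnt5a* encode ligands that act mainly through non-canonical branches. *Wnt5b* averaged 1.16 ± 0.520 TPM in NT muscles and 2.13 ± 0.512 TPM in *Uba1* muscles (SD, n = 4 each). Its log2FC was 0.55 ± 0.18 (standard error; limma, adjusted p = 0.183), and it was higher in 3 of 4 pairs. *Wnt5a* was at 1.37 ± 0.0599 and 1.88 ± 0.259 TPM (SD, n = 4 each), and was higher in 4 of 4 pairs with no overlap between the groups (log2FC 0.28, limma, adjusted p = 0.182). *Wls*, which encodes the carrier that brings Wnt ligands to the cell surface, had a log2FC of 0.30 (limma, adjusted p = 0.298). The most abundant ligand mRNAs with NT siRNAs, *Wnt9a* and *Wnt4*, had a log2FC of 0.14 and 0.075, or 0.030 and -0.032 with median-ratio scaling.

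Of the receptors and co-receptors, 16 of 23 were tested and 5 were higher at an unadjusted P under 0.05, against 16% of all genes tested. *Fzd1*, *Fzd9* and *Fzd6* encode Frizzled receptors and had the largest log2FC. *Fzd1* averaged 1.97 ± 0.422 TPM in NT muscles and 2.96 ± 0.190 TPM in *Uba1* muscles (SD, n = 4 each), without overlap and higher in 4 of 4 pairs. Its log2FC was 0.43 ± 0.11 (standard error; limma, adjusted p = 0.150). The log2FC was 0.35 for *Fzd9* (limma, adjusted p = 0.210) and 0.24 for *Fzd6* (limma, adjusted p = 0.244). *Fzd4*, *Ryk*, *Kremen1* and *Fzd7* were each above 20 TPM on average, which was more than any of the 8 secreted modulators.

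The 16 genes of the beta-catenin core were all tested, and 3 of them had an unadjusted P under 0.05, which is near the 18% of all genes tested. These were *Bcl9l*, a co-activator of beta-catenin, *Apc*, a scaffold of the complex that degrades beta-catenin, and *Gsk3b*, a kinase of that complex. Their log2FC was 0.29, 0.23 and 0.23 (limma, adjusted p = 0.182, 0.265 and 0.226). With median-ratio scaling these values were smaller, at 0.18, 0.13 and 0.11, and 9 of the 16 genes were above 0, against 15 without it.

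Of 15 target genes of beta-catenin, 6 were tested. *Ccn4*, also known as *Wisp1*, encodes a matricellular protein and averaged 1.11 ± 0.457 TPM in NT muscles and 2.38 ± 0.927 TPM in *Uba1* muscles (SD, n = 4 each). The groups did not overlap, and its log2FC was 0.67 ± 0.20 (standard error; limma, adjusted p = 0.177). *Tnfrsf19*, a receptor of the TNF receptor family, and *Nkd2*, a feedback inhibitor of the pathway, had a log2FC of 0.31 and 0.22 (limma, adjusted p = 0.390 and 0.232), or 0.20 and 0.16 with median-ratio scaling. *Axin2*, a feedback inhibitor widely used as a readout of canonical signaling and singled out after its values were seen, was at 4.16 ± 0.708 and 4.79 ± 0.462 TPM (SD, n = 4 each; log2FC 0.17, limma, adjusted p = 0.400), and its log2FC was 0.073 with median-ratio scaling. *Sp5* was listed at 0 TPM in all 8 muscles and *Lef1* was at 0.0333 and 0.0566 TPM on average.

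**Figure D3:**
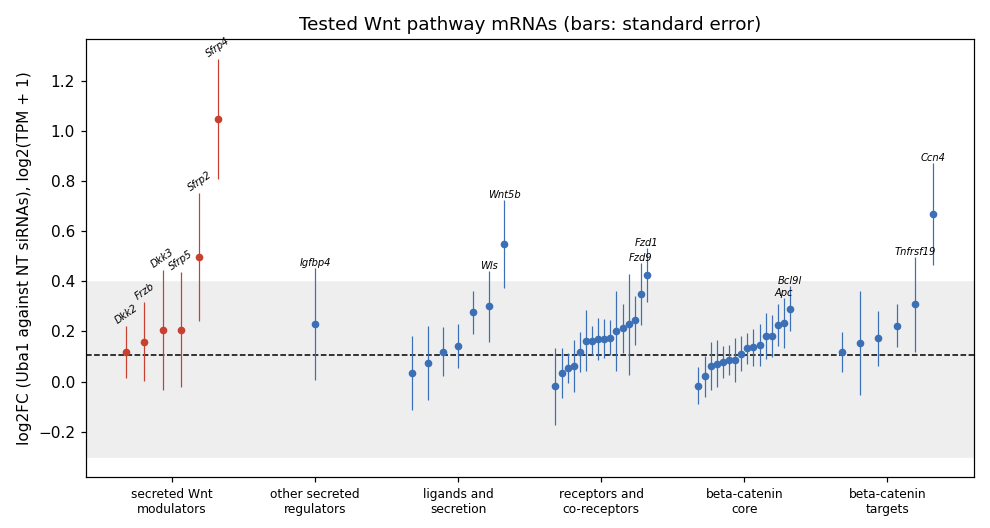
log2FC of tested genes (y axis, *Uba1* against NT siRNAs on the log2(TPM + 1) scale, bars: standard error) for the secreted modulators (red) and 5 lists of pathway genes (blue). The dashed line is the median of all genes tested, 0.11, and the gray band holds their central 95%, from -0.30 to 0.40. *Sfrp4*, *Sfrp2*, *Wnt5b*, *Fzd1* and *Ccn4* lie above the band, which pools genes of all levels. *Sfrp4* was picked for its rise, and *Wnt5b*, *Fzd1* and *Ccn4* have the largest log2FC of their lists, so their place is a description.

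Markers of cell types that may express these genes were summed in each muscle. In bulk muscle, fewer cells of a type and less RNA per cell cannot be told apart. Of 8 osteoblast markers, 4 were tested and all 4 had a log2FC above 0, with a median of 1.50, and none passed the adjusted p. The summed level of all 8 was 23.5, 11.6, 10.5 and 14.2 TPM in NT replicates 1 to 4, and 16.1, 56.7, 27.9 and 57.2 TPM in *Uba1* replicates 1 to 4 (exact permutation test of the log2 sums, p = 0.0571, two-sided). The sum was lower in the *Uba1* leg of mouse 1 and higher in the *Uba1* legs of the other 3 mice. The sums of the tenocyte and chondrocyte markers had the same signs in these mice. *Chad*, higher in 3 of 4 mice, made up 12.9 of the 15.7 TPM of the chondrocyte sum in NT replicate 1. In *Uba1* replicate 2 it made up 11.3 of 13.2 TPM. The chondrocyte marker *Sox9* was instead lower in 4 of 4 mice (log2FC -0.60, limma, adjusted p = 0.182). Of the 8 osteoblast markers, *Sp7*, *Runx2* and *Dmp1* were higher in 4 of 4 mice, mouse 1 included. *Sp7*, the defining transcription factor of osteoblasts, averaged 0.230 ± 0.109 TPM in NT muscles and 0.866 ± 0.133 TPM in *Uba1* muscles (SD, n = 4 each), and *Phex*, an osteocyte and osteoblast gene, averaged 0.254 ± 0.114 and 0.228 ± 0.0530 TPM. *Bglap* and *Bglap2* are near-identical copies, so their levels are uncertain. The part of osteoblast-lineage RNA in the *Sfrp4* difference was not tested.

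All 12 markers of fibroblasts and fibro-adipogenic progenitors were tested, and 11 had a log2FC above 0, with a median of 0.21, where 81.8% of all genes tested were above 0 and their median was 0.11. With median-ratio scaling, 9 of the 12 and 50.7% of all genes were above 0, and the medians were 0.11 and 0.0016. Their summed level was between 983 and 1667 TPM with NT siRNAs and between 1105 and 2000 TPM with *Uba1* siRNAs (exact permutation test of the log2 sums, p = 0.40, two-sided). That test does not use the pairing of legs, and the sum was higher with *Uba1* siRNAs in 3 of 4 mice. The collagen mRNAs *Col1a1* and *Col1a2* had a log2FC of 0.57 and 0.55 (limma, adjusted p = 0.340 and 0.271), and *Pdgfra*, the defining receptor of fibro-adipogenic progenitors, one of 0.30 (limma, adjusted p = 0.543). With the mouse as a block, the adjusted p was 0.0795 for *Col1a1*, 0.0662 for *Col1a2* and 0.120 for *Pdgfra* (limma), and 0 of the 12 markers passed. These mRNAs were each higher in 4 of 4 pairs, as were 32.2% of all genes tested. Per 1000 TPM of these 12 markers, *Sfrp4* was at 2.50, 1.54, 2.35 and 1.56 TPM in NT replicates 1 to 4 and at 2.53, 6.42, 3.73 and 5.05 TPM in *Uba1* replicates 1 to 4. *Uba1* replicate 1 was nearly level with NT replicate 1 on this ratio, and the other 3 *Uba1* muscles were higher. Relative to *Pdgfra* alone, *Sfrp4* was at 0.742, 0.470, 0.539 and 0.428 in NT replicates 1 to 4 and at 0.605, 1.81, 0.787 and 1.50 in *Uba1* replicates 1 to 4. The groups overlapped on this ratio, with *Uba1* replicate 1 below NT replicate 1. Relative to *Frzb*, they also overlapped, with 0.336 in both *Uba1* replicate 1 and NT replicate 3. As *Sfrp4* was picked for its rise in these muscles, the ratios describe it and give no further support. Of 8 tenocyte markers, 7 were tested and 6 had a log2FC above 0, with a median of 0.42, and the sum of all 8 was between 105 and 250 TPM with NT siRNAs and between 165 and 242 TPM with *Uba1* siRNAs (exact permutation test, p = 0.343, two-sided). The part of these cells in the levels of the 8 modulators was not tested.

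**Figure D4:**
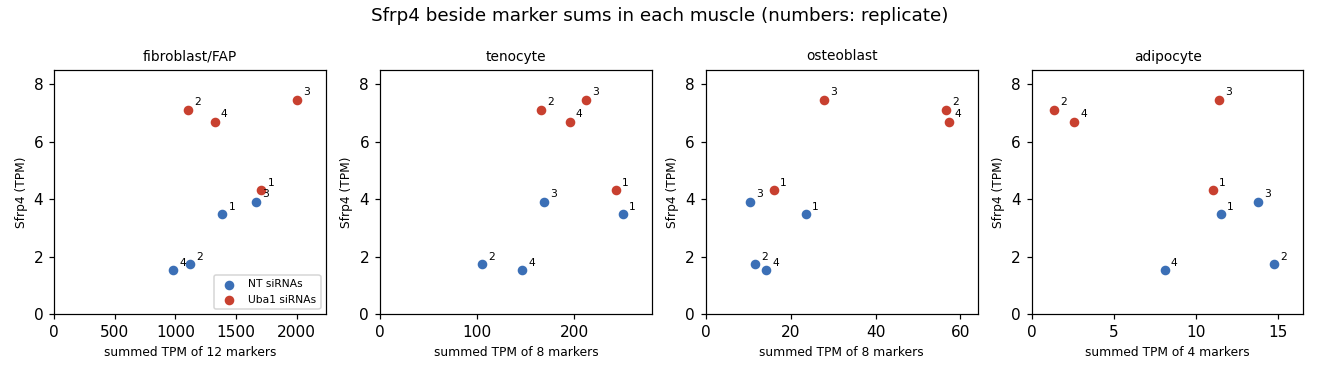
*Sfrp4* (y axes, TPM) against the summed TPM of fibroblast, tenocyte, osteoblast and adipocyte markers (x axes), with 1 point per muscle numbered by replicate (blue: NT, red: *Uba1* siRNAs). The osteoblast sum is 56.7 and 57.2 TPM in *Uba1* replicates 2 and 4, where the adipocyte sum is 1.34 and 2.61 TPM. In *Uba1* replicate 3, with the highest *Sfrp4* at 7.46 TPM, these sums are 27.9 and 11.4 TPM. The adipocyte sum there lies within the NT range of 8.11 to 14.8 TPM. In *Uba1* replicate 1 the osteoblast sum of 16.1 TPM lies within the NT range.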

How the data were processed

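Total RNA of 8 TA muscles was sequenced after library preparation with the TruSeq RNA Sample Prep v2 Kit. Per the study's methods, the authors mapped the trimmed reads and quantified the genes in CLC Genomics Workbench, and the deposited table holds 1 column of TPM per muscle (build GRCm39). The annotation, the counting strand and the handling of multiply matching reads are not given in the sources used here. Groups and replicate numbers came from the sample labels.

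All 8 modulators were found by symbol. TPM were transformed to log2(TPM + 1), and genes with at least 1 TPM in 4 or more muscles were fitted with limma 3.58.1 (R 4.3.3, eBayes with a trend) without covariates, with Benjamini-Hochberg adjustment over all 11530 genes. The script was tested on simulated data. Sums of markers and genes under the filter were compared with the exact permutation test, which does not use the pairing of legs. Equal replicate numbers mark the legs of a mouse, and the deviations of these legs from the group means correlated across genes at -0.00037, 0.20, 0.58 and 0.54 for mice 1 to 4.

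The genes named by rule are the 8 modulators, *Uba1*, the 3 tested genes with the largest absolute log2FC of each pathway list, and the 5 genes most like *Sfrp4* by either measure. Other listed genes were named after their values were seen. The modulators and the lists were chosen with earlier results of these data known. Positions and upstream sequences come from GENCODE M39 and the GRCm39 genome. The upstream sequence of *Sfrp4* is not reported here. TPM keep no read total, so no counting interval is given and the number of muscles limits the precision.

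As alternatives, the pseudocount was lowered to 0.1, the filter was dropped or raised to a mean of 5 TPM, and the scaling was changed (median ratios, quantiles, or TPM without mitochondrial genes). The replicate block was added, alone and with median ratios. The Kruskal-Wallis test, which the study's methods name, replaced limma, and each muscle was omitted in turn.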

Additional observations from a re-analysis of the deposited data

How the results depend on the processing

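The number of genes past the adjusted p was 3 with all muscles and no block. It was 23 after median-ratio scaling, 57 under the replicate block and 76 under both together. Quantile normalization gave 28, a minimum mean of 5 TPM gave 11 and TPM without mitochondrial genes gave 14. The Kruskal-Wallis test gave 0, and its unadjusted P was under 0.05 for 2210 genes. Its P has a floor with 4 muscles against 4, so a 0 after adjustment over 11530 genes says little. When a muscle was omitted, the number of genes past the adjusted p ranged between 2 and 39. It was 39 without *Uba1* replicate 4, 6 without NT replicate 1, and 5 without NT replicate 3 or without *Uba1* replicate 2. The cause was not tested. No gene of the Wnt pathway lists and none of the 5 tested modulators other than *Sfrp4* passed under any of the 17 alternatives in which it was tested. The log2FC of *Sfrp4* was between 0.89 and 1.31 over 15 alternatives and that of the other tested modulators kept its sign, between 0.26 and 0.79 for *Sfrp2*, 0.062 and 0.42 for *Sfrp5*, 0.0093 and 0.25 for *Frzb*, 0.032 and 0.21 for *Dkk2*, and 0.029 and 0.34 for *Dkk3*. *Sfrp1* was between 0.10 and 0.43. Among the pathway genes named, the log2FC also varied by over 1.5 times, for example between 0.14 and 0.47 for *Tnfrsf19*, 0.054 and 0.25 for *Axin2*, 0.072 and 0.39 for *Igfbp4*, 0.13 and 0.33 for *Fzd6*, and 0.19 and 0.40 for *Wls*. *Wif1* turned to 0.065 with pseudocount 0.1, and ranged between -0.21 and 0.12 when a muscle was omitted, above 0 without NT replicate 1 (0.094), NT replicate 3 (0.12) or *Uba1* replicate 2 (0.11). The filter of 5 TPM removed all modulators but *Frzb* and *Dkk3*, and the Kruskal-Wallis test and quantile normalization gave no value for *Sfrp1* and *Wif1*, which are under the filter. Beside *Uba1* and *Sdc4*, the replicate block changed the call of no gene whose adjusted p is given here.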

Other observations

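Other marker lists were examined beside the secreted modulators. The adipocyte markers were lower with *Uba1* siRNAs in all 4 mice as a sum, which was between 8.11 and 14.8 TPM with NT siRNAs and between 1.34 and 11.4 TPM with *Uba1* siRNAs (exact permutation test of the log2 sums, p = 0.171, two-sided), and *Adipoq*, the adipokine adiponectin, had a log2FC of -0.94 (limma, adjusted p = 0.322). The sum of 7 satellite cell markers was also lower in 4 of 4 mice, between 65.7 and 75.6 TPM with NT siRNAs and between 55.7 and 71.8 TPM with *Uba1* siRNAs (exact permutation test, p = 0.114, two-sided). This list includes *Sdc4*, which other muscle cells express too. Without *Sdc4*, the sum of the other 6 markers was 39.5, 32.6, 32.6 and 26.7 TPM in NT replicates 1 to 4 and 51.3, 32.2, 38.0 and 36.9 TPM in *Uba1* replicates 1 to 4, higher in 3 of 4 mice (exact permutation test, p = 0.286, two-sided). *Myod1*, a myogenic transcription factor, was higher in 4 of 4 mice, with a log2FC of 0.34 (limma, adjusted p = 0.319). *Sdc4*, a heparan sulfate proteoglycan, went from 37.7 ± 4.36 to 22.1 ± 2.82 TPM (SD, n = 4 each; limma, adjusted p = 0.0527, and 0.00984 with the mouse as a block). The stem cell factor *Pax7* was at 1.60 ± 0.563 and 1.85 ± 0.376 TPM (SD, n = 4 each). The sums of the leukocyte, endothelial, mural, Schwann cell and chondrocyte markers overlapped between the groups, with exact permutation p-values (two-sided) of 0.971, 1, 0.629, 0.857 and 0.429.

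The genes whose log2(TPM + 1) was most like that of *Sfrp4* over the 8 muscles were *Tgfbrap1*, *Fig4*, *Six5*, *Vars2* and *Zfp426*, with Pearson's r from 0.948 to 0.984. After the group means were subtracted, they were *Pkp4*, *Tgfbrap1*, *Rgs3*, *Fig4* and *Fgd5*, with r from 0.916 to 0.951. These are the highest of 11529 genes over 8 muscles that share mice, and are given as a description. Of the 5 tested modulators compared with it (*Sfrp1* and *Wif1* were not), *Sfrp2* was most like *Sfrp4*, with r of 0.65 after the group means were subtracted, and *Lum* was so among the fibroblast markers, with r of 0.71. The gene to the right of *Sfrp2*, *Tlr2* at 61953 bp, had a log2FC of -0.51, while *Sfrp2* had one of 0.50.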
